A study of Mus musculus with 9 samples.

Results

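The 9 genes described here encode the parts that assemble and first test the immunoglobulin heavy chain in developing B cells: Rag1, Rag2 and Dntt for recombination, Vpreb1, Vpreb2 and Igll1 for the surrogate light chain, Vpreb3, and Cd79a and Cd79b for receptor signalling. They were taken by symbol from the 31053 genes of the count matrix, without use of their values, and all 9 were measured. Single cell RNA sequencing was performed on whole femur bone marrow of 9 female mice aged 9 to 10 weeks: 3 NZB (New Zealand Black), 3 NZW (New Zealand White) and 3 NZBWF1 mice, the F1 hybrid of the 2 parent strains. All mice came from one supplier in a single delivery, none was treated, and red blood cells were lysed before the cells were loaded, 1 library per mouse. All tests were made over mice, not cells.

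In the bone marrow, RAG1 and RAG2 form the enzyme that cuts immunoglobulin gene segments, first at the heavy chain locus in pro-B cells and later at the light chain loci in small pre-B cells, and the terminal transferase encoded by Dntt adds nucleotides at the heavy chain joints. A heavy chain that has been joined in frame pairs with the surrogate light chain (VpreB and lambda5, the product of Igll1) and with the CD79A and CD79B signalling chains to form the pre-B receptor, and the large pre-B cells then divide before they rest and rearrange a light chain. VpreB3 is a related protein that binds immunoglobulin chains inside the cell, and CD79A and CD79B remain part of the B-cell receptor in mature B cells.

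Vpreb1 and Vpreb2 are close copies, and the sequences show why their unique molecular identifiers (UMIs, which count captured RNA molecules) cannot be assigned with certainty. In the GRCm38 annotation, Vpreb1 lies at chr16:16868403-16870843 on the minus strand, beside Igll1 at chr16:16860671-16863985 on the same strand, and Vpreb2 lies at chr16:17980428-17981273 on the plus strand. The stretch of 120 bases below spans coding bases 268 to 387 of the 429 in each gene, 5′ to 3′, and capitals mark 6 of the 9 coding differences.
Vpreb1: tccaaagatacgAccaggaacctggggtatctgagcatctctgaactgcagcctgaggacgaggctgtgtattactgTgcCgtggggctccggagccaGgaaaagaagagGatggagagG
Vpreb2: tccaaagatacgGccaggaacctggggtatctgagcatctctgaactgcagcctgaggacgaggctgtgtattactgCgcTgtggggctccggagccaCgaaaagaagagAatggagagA
The coding sequences were identical at 97.9% of positions (420 of 429), and the 193 bases after the stop codon, which the 3′ assay reads, were identical at 96.4% (186 of 193). Vpreb1 shared 44.1% of aligned coding positions with Igll1 and 48.6% with Vpreb3, so the uncertainty concerns the Vpreb1 and Vpreb2 pair.

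The likeness extends upstream of both genes. In RefSeq sequence of GRCm38.p6, the 100 bases at chr16:16869256-16869355 (minus strand), just before the start of Vpreb1 in RefSeq, which lies within the longer gene annotated above, matched chr16:17980321-17980420 (plus strand) of Vpreb2 at 98 positions, and capitals mark the 2 differences.
Vpreb1: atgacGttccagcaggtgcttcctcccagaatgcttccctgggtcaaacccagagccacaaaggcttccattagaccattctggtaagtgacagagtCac
Vpreb2: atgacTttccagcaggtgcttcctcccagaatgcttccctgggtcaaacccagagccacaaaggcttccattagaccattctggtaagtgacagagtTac

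The remaining genes are spread over 5 other chromosomes: Rag1 at chr2:101638282-101649501 (minus strand) beside Rag2 at chr2:101624718-101632529 (plus strand), Dntt at chr19:41029275-41059525 (plus strand), Vpreb3 at chr10:75943057-75949657 (plus strand), Cd79a at chr7:24897381-24902197 (plus strand) and Cd79b at chr11:106311341-106314762 (minus strand). A RefSeq promoter window was matched for 8 of the 9, all but Cd79b. The 250 bases upstream of the start of Igll1 (chr16:16863986-16864235, minus strand) and Rag1 (chr2:101649533-101649782, minus strand) are shown because Rag1 showed the largest and Igll1 the smallest difference between the dividing and resting gates described later. Capitals mark the letters CCCNNGGG, the core recognised by EBF1, and the E-boxes CAGCTG and CAGGTG, read on both strands.
Igll1: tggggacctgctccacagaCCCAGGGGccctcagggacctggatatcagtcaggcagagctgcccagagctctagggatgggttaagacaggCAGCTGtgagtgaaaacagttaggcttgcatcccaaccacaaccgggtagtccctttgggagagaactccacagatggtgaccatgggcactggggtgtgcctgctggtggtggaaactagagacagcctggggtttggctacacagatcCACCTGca
Rag1: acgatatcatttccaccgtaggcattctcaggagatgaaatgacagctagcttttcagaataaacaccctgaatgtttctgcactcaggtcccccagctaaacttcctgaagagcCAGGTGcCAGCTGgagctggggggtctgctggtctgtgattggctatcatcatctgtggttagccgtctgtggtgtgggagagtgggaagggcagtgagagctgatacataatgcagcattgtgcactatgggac
CCCNNGGG was found in the window of 1 of the 8 genes (Igll1) against 13.7% of 32851 promoters, CAGCTG in 3 of 8 (Rag1, Vpreb2, Igll1) against 16.3%, and CAGGTG in 5 of 8 (Rag1, Vpreb1, Vpreb2, Igll1, Cd79a) against 20.2%. The Vpreb1 and Vpreb2 windows overlap in sequence, and a match describes these letters only.

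Of 68444 barcodes, 39051 cells were kept, with 8106539 to 18663189 UMIs per mouse and a median of 2182.5 to 2536.5 UMIs per cell. Cells were placed in classes by marker genes, none of them among the 9 genes, and 7360 cells (18.8%) fell in the B-lineage gate: 7.62%, 4.42% and 7.58% of cells for NZB, 29.4%, 20.8% and 22.4% for NZW and 30.2%, 15.3% and 28.7% for NZBWF1 mice. Within it, 161 cells carried an early progenitor marker (early gate), 2848 carried at least 3 UMIs of division markers (dividing gate), 1509 carried at least 2 UMIs of mature markers such as Ighd (mature gate) and 2582 fell short of these limits (resting gate). Cells entered the early gate whatever their division UMIs. The summed mean CPM of the 15 division markers was 5716 in the early, 9124 in the dividing and 167 in the resting gate. Markers in the resting gate were mixed. Il2ra, a small pre-B marker, was highest there, at 44.4 CPM (counts of a gene scaled to a common total of UMIs for each gate and mouse). It stood at 4.83, 19.2 and 17.2 CPM in the early, dividing and mature gates. Igkc and Ms4a1, highest in the mature gate (8963 and 1984 CPM), stood at 6520 and 1124 CPM in the resting gate. Levels of different genes do not give shares of cells, so the resting gate cannot be taken as pure small pre-B cells. It can also hold earlier cells in which no early marker UMI was captured. Median depth was 2784, 2457, 1213 and 1348 UMIs per cell in the early, dividing, resting and mature gates, and the summed level of 8 neutrophil markers was 397, 747, 3074 and 3083 CPM. The part of neutrophil RNA in differences between gates was not tested. With every cell thinned to 1000 UMIs and left in its gate, 21 of the 22 calls between gates described next were kept, all but the rise of Rag2 into the resting gate (0.39, adjusted p = 0.103, edgeR). Gates were set on the full counts, so the thinning cannot show how depth decided which gate a cell entered. Thinning also leaves the expected share of each gene in a cell unchanged, so most calls would be kept in any case. It therefore cannot show the part of RNA content per cell in these differences. Of the barcode sequences, 170 were shared by kept cells of 2 or more mice.

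All of the genes but Dntt had most of their kept UMIs in the B-lineage gate. The B-lineage gate held 76.3% of the kept UMIs of Rag1, 75.7% of Rag2, 77.6% of Vpreb1, 73.5% of Vpreb2, 77.7% of Igll1, 80.4% of Vpreb3, 78.9% of Cd79a and 75.3% of Cd79b. Dntt was spread more widely, with 48.7% of its UMIs in the B-lineage gate, 9.47% in hematopoietic stem cell (HSC)-like cells, 8.02% in plasmacytoid dendritic cell (pDC)-like cells and 22.1% in cells that passed no gate.

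The first comparison followed the genes along the 4 gates of the B lineage, with each mouse as its own control. The 3 recombination genes, Vpreb1, Vpreb2 and Igll1 were all lower in the dividing than in the early gate. Rag1, Rag2, Dntt, Vpreb1, Vpreb2, Cd79a and Cd79b were higher in the resting than in the dividing gate. Rag1 stood there about as high as in the early gate (medians of 211 and 210 CPM), and 7 of the 9 genes were lower in the mature gate. The resting gate was mixed, with Dntt at 1123 CPM in 556 cells holding surrogate light chain UMIs and 3.23 CPM in the other 2026. The stage of those 556 cells was not tested, so a rise of these genes after division is not shown. Only the receptor signalling chains were higher in the mature than in the resting gate. The 3 steps share gates and mice and are not independent of each other.

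**Figure D1:**
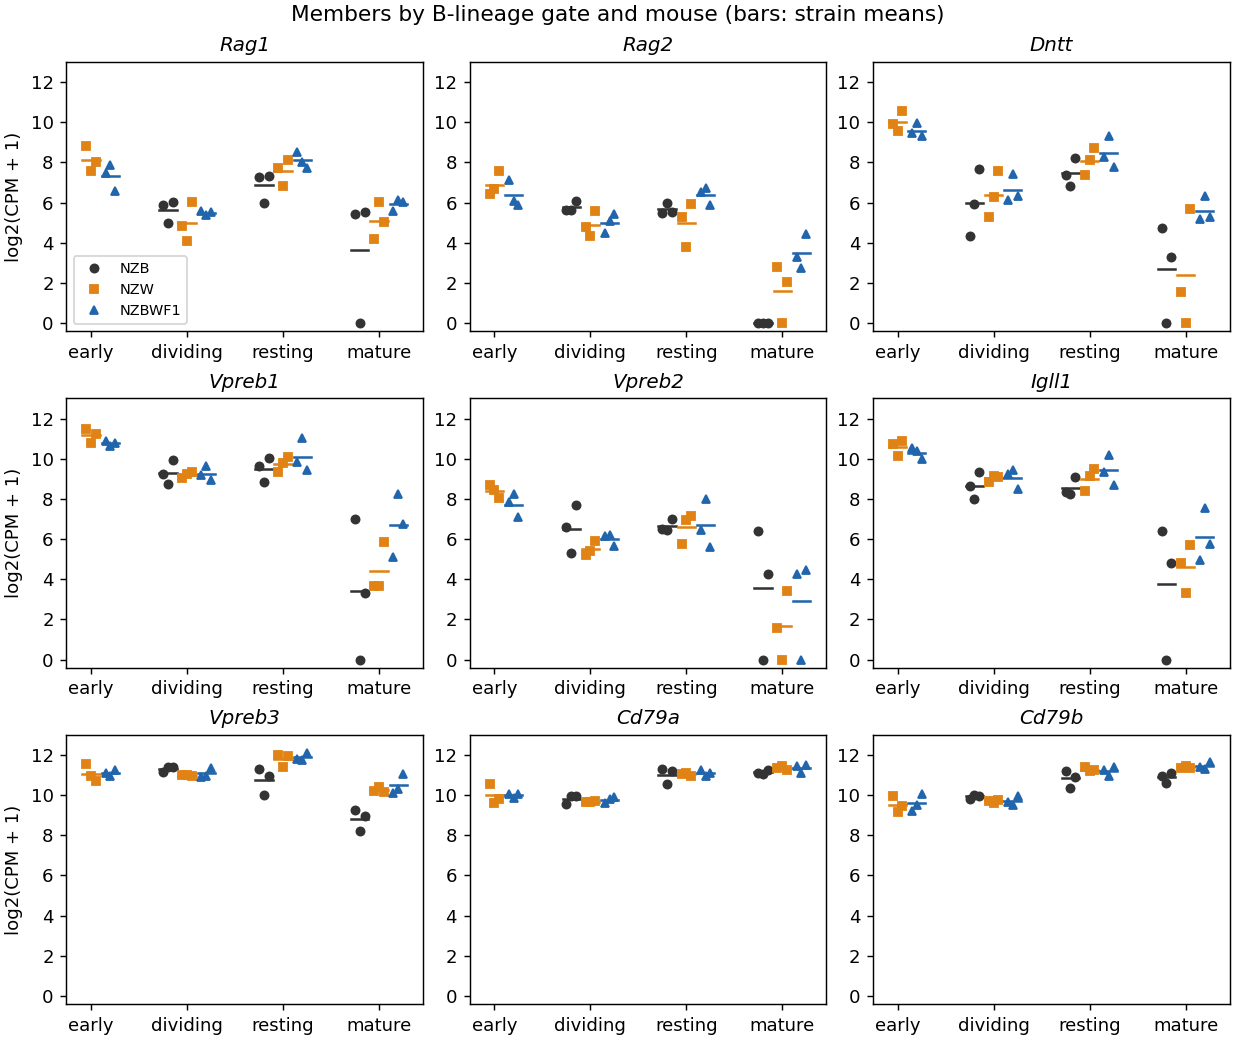
Level of each gene, as log2(CPM + 1), in the early, dividing, resting and mature gates, with 1 point per mouse and a bar for each strain mean (3 mice). NZB mice have no early value because they had fewer than 10 cells there. The panels show the drop of Rag1, Rag2, Dntt, Vpreb1, Vpreb2 and Igll1 from the early to the dividing gate, their lower values in the mature than in the resting gate, and the Vpreb3 values of the 3 NZB mice below those of the other 6 in the mature gate.

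Rag1, the catalytic subunit of the recombinase, ranged from 96.0 to 445 CPM (median 210) in the early gate of 6 mice, from 16.3 to 63.8 (median 44.8) in the dividing gate of 9 mice, from 62.7 to 371 (median 211) in the resting gate and from 0 to 68.6 (median 44.6) in the mature gate. The early and dividing values did not overlap, and the dividing and resting values overlapped only in that the lowest resting value, in an NZB mouse, lay under the highest dividing value. Rag2, its partner, ranged from 57.6 to 189 CPM in the early gate, from 19.4 to 67.1 in the dividing gate, from 12.8 to 106 in the resting gate and from 0 to 21.0 in the mature gate. Its dividing and resting values overlapped over most of their range. Dntt ranged from 633 to 1522 CPM in the early gate, 19.3 to 201 in the dividing gate, 113 to 642 in the resting gate and 0 to 80.1 in the mature gate, so that its early values lay far above all dividing values.

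The surrogate light chain genes had their highest means in the early gate. Vpreb1 ranged from 1587 to 2826 CPM in the early gate, 430 to 978 in the dividing gate, 452 to 2109 in the resting gate and 0 to 297 in the mature gate. Igll1, which encodes the constant-like chain lambda5, ranged from 1027 to 1868, 251 to 690, 301 to 1183 and 0 to 183 CPM in the same gates. Both genes had early values above every dividing value, and their dividing and resting values overlapped. Vpreb2 followed at lower values, with means of 280 ± 96.1 (SD, n = 6), 74.4 ± 52.7, 112 ± 61.7 and 17 ± 26.7 CPM (SD, n = 9), within the limit set by its likeness to Vpreb1.

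Vpreb3 and the signalling chains behaved differently. Vpreb3 stood at 2201 ± 475 CPM (SD, n = 6) in the early gate, 2249 ± 333 in the dividing gate, 3084 ± 1101 in the resting gate and 1063 ± 542 in the mature gate (SD, n = 9). Cd79a stood at 1041 ± 255, 868 ± 97.3, 2148 ± 312 and 2513 ± 298 CPM, and Cd79b at 777 ± 210, 886 ± 104, 2234 ± 423 and 2459 ± 472 CPM. The lowest resting values of Cd79a (1493 CPM) and Cd79b (1330 CPM) lay above the highest dividing values (1006 and 1030 CPM).

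From the early to the dividing gate, 6 of the 9 genes fell by edgeR's quasi-likelihood test with Benjamini-Hochberg adjustment, where 9.65% of 6231 genes were called and 4.43% were lower. The log2 difference was -2.36 for Rag1 (SE 0.365, adjusted p = 0.000108), -1.64 for Rag2, -3.12 for Dntt (SE 0.241, adjusted p = 4.04e-09), -1.68 for Vpreb1, -2.21 for Vpreb2 and -1.36 for Igll1. Vpreb3 (0.29, adjusted p = 0.583), Cd79a (-0.18, 0.354) and Cd79b (0.30, 0.130) did not pass. The early gate rests on 161 cells and no NZB mouse is in its values, and with the mitochondrial limit at 5% the calls for Rag1 (-1.78, adjusted p = 0.194) and Rag2 (-1.09, adjusted p = 0.260) were lost.

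From the dividing to the resting gate, 7 of the 9 genes rose as a share of UMIs, where 66% of genes were called and 34.2% were higher. Levels per cell were not tested, and median depth was 2457 and 1213 UMIs in the 2848 dividing and 2582 resting cells. Of all kept UMIs, these gates held 19.0% and 43.4% of Rag1, 16.8% and 18.9% of Dntt and 24.0% and 26.6% of Cd79b. They held 26.2% and 25.6% of Cd79a, 33.2% and 22.7% of Vpreb2, 38.7% and 25.4% of Rag2 and 40.3% and 24.8% of Vpreb1. Rag1 rose most, by 2.42 on the log2 scale (SE 0.204, adjusted p = 3.25e-10), followed by Dntt (1.56), Cd79b (1.31), Cd79a (1.27), Vpreb2 (0.77), Rag2 (0.67) and Vpreb1 (0.56, SE 0.238, adjusted p = 0.0451). Igll1 differed by 0.10 (adjusted p = 0.654) and Vpreb3 by 0.37 (adjusted p = 0.112). The difference in Vpreb1 turned to -0.07 (adjusted p = 0.785) when cells down to 500 UMIs and 250 genes were kept, a setting chosen after seeing the data, and it did not pass without NZW replicate 2 or 3 or without NZBWF1 replicate 1 or 3. Vpreb1 also failed without the low-count filter (adjusted p = 0.101), with 2000 UMIs and 1000 genes, with 1 more marker gene and with mixed cells kept. DESeq2 called 0 of Vpreb1 (adjusted p = 0.217), Vpreb2 (0.0845) and Rag2 (0.0699) here. Vpreb2 was further lost without NZW replicate 3, with 2000 UMIs and 1000 genes and with 500 UMIs and 250 genes, and Rag2 with the mitochondrial limit at 5% or with cells thinned.

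From the resting to the mature gate, 7 genes fell and 2 rose, where 22.1% of genes were called, 9.76% lower and 12.3% higher. Vpreb1 fell by 3.69 on the log2 scale, Igll1 by 3.41, Dntt by 3.28, Vpreb2 by 2.82, Rag2 by 2.78, Rag1 by 2.15 and Vpreb3 by 1.37 (SE 0.209, adjusted p = 2.5e-05). Cd79a rose by 0.35 (SE 0.0794, adjusted p = 0.000280) and Cd79b by 0.27 (SE 0.0880, adjusted p = 0.0193), the latter not without NZB replicate 3 or NZBWF1 replicate 2, with cells down to 500 UMIs and 250 genes kept (0.04, adjusted p = 0.746) or with DESeq2 (adjusted p = 0.0597). The call for Rag1 was lost with the mitochondrial limit at 5% (-0.98, adjusted p = 0.229) and that for Vpreb2 with 2000 UMIs and 1000 genes (-1.71, adjusted p = 0.111). Several mature values were 0 UMIs. In NZB replicate 2, whose mature gate held 22 cells and 30489 UMIs, a count of 0 allows up to 98.4 CPM, above the highest values of Rag1 (68.6 CPM) and Dntt (80.1 CPM) in any mouse.

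The genes were also read against the number of division marker UMIs in each cell of the early, dividing and resting gates, with every cell thinned to 1000 UMIs for both the levels and the division UMIs. Rag1 was at 227 ± 91.3 CPM (SD, n = 9) in 2353 cells with no division UMI, 157 ± 109 in 668 cells with 1 or 2, 52.7 ± 50.4 (SD, n = 8) in 710 cells with 3 to 6, 48.3 ± 35.4 in 906 cells with 7 to 12 and 72.1 ± 29.0 in 954 cells with 13 or more. Igll1 went from 656 ± 287 to 662 ± 304, 463 ± 114, 423 ± 168 and 308 ± 149 CPM over the same bins. Rag1 thus had its lowest means in the middle bins and Igll1 in the highest bin. Vpreb3 (3238 ± 1210 and 2959 ± 496 CPM in the first and last bins) had its lowest mean, 2282 ± 289, in the middle bin, and Cd79b had 2320 ± 391 CPM in the first bin against 1003 ± 205 to 1449 ± 485 in the others. These bins use the markers that set the dividing gate and are a description without a test.

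**Figure D2:**
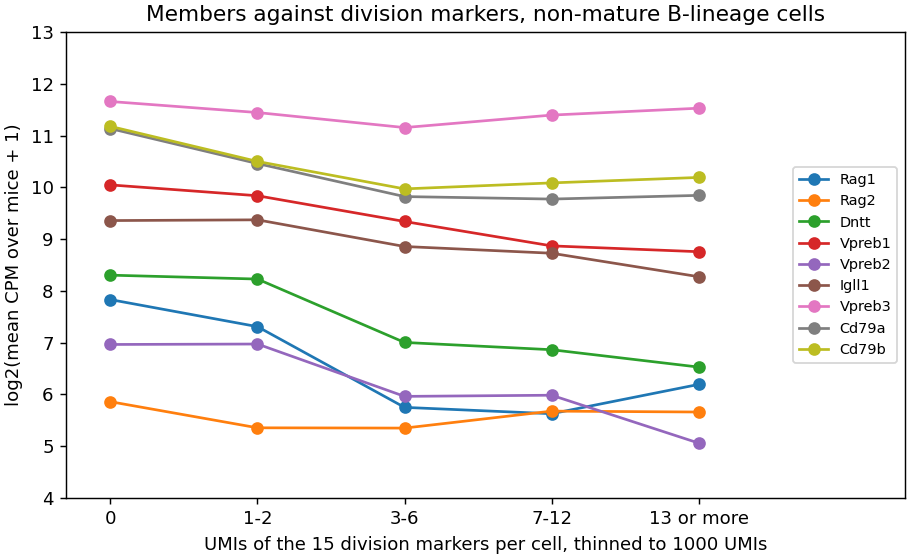
Mean level over mice of each gene, as log2(mean CPM + 1), against the number of UMIs of 15 division markers per cell, for cells of the early, dividing and resting gates thinned to 1000 UMIs each. Rag1 has its lowest means, 48.3 and 52.7 CPM, at 7 to 12 and 3 to 6 division UMIs, whereas Vpreb3 stays between 2282 and 3238 CPM.

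Within the resting gate, the genes were not spread evenly over cells. Of its 2582 cells, 556 held at least 1 UMI of Vpreb1, Vpreb2 or Igll1 and 2026 held none, a split made after the values were seen and given without a test. Cells with surrogate light chain UMIs had 1123 ± 385 CPM of Dntt and those without had 3.23 ± 6.46 (SD, n = 9 each). Rag1 stood at 351 ± 165 against 149 ± 87.0 CPM and Rag2 at 149 ± 61.8 against 23.4 ± 19.2. Rag1 was thus present on both sides of the split, whereas Dntt was found almost wholly on one side.

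The other side of the split carried the light chain and later B-cell genes. Igkc, the kappa light chain constant gene, stood at 1088 ± 540 CPM with and 8397 ± 1688 CPM without surrogate light chain UMIs. Cd79b stood at 1281 ± 249 against 2557 ± 422 CPM, Cd79a at 1564 ± 359 against 2347 ± 360, and Vpreb3 at 4333 ± 1002 against 2624 ± 1307. Il7r, the interleukin-7 receptor chain, stood at 512 ± 131 against 267 ± 128 CPM. The share of resting-gate cells with such UMIs came to 25.4 ± 7.43% for NZB, 19.6 ± 6.10% for NZW and 28.0 ± 17% for NZBWF1 mice (SD, n = 3), ranges that overlapped.

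The same pairing appeared with every cell thinned to 1000 UMIs. In the resting gate, Vpreb1 was detected in 92.8% of cells with Igll1 and 5.42% of cells without it, higher in 9 of 9 mice, and Dntt in 59.8% against 2.11%, also in 9 of 9. Rag1 was detected in 33.8% of cells with Igll1 and in 12.1% of cells without it. In the dividing gate Vpreb1 was detected in 66.5% of cells with Igll1 and 13.9% of cells without, whereas Rag1 was detected in 4.49% of cells with Igll1 and 5.34% of cells without it, higher in 4 of 9 mice. Among neutrophil-like cells, which should lack these genes, thinned cells held Vpreb1 in 0.323%, Dntt in 0.184% and Rag1 in 0.201%, at a median of 2359 UMIs before thinning against 1213 in the resting gate.

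Genes of 3 related pathways were followed over the same steps. For 12 end-joining genes, which repair the breaks made by the recombinase, 7 were tested: 3 rose and 0 fell from the early to the dividing gate (median log2 difference 0.23, against 0.02 over all genes), 2 rose and 1 fell into the resting gate (0.06 against 0.03), and 0 rose and 2 fell into the mature gate (-0.14 against 0.00). Lig4, the ligase of this pathway, rose by 1.52 into the dividing gate (adjusted p = 0.00177) and fell by 1.46 into the mature gate, and Xrcc6, which encodes Ku70, fell by 1.61 there. Of 13 tested regulators of the Rag genes, 5 rose and 1 fell, 5 rose and 3 fell, and 1 rose and 7 fell in the 3 steps, with medians of 0.18, 0.19 and -0.68, where 9.65%, 66% and 22.1% of all genes were called. Foxo1, an activator of Rag transcription, rose by 0.86 from the dividing to the resting gate (adjusted p = 6.93e-14).

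Of 15 genes of pre-B receptor and interleukin-7 receptor signalling, 5 rose and 1 fell, 11 rose and 2 fell, and 4 rose and 4 fell in the 3 steps, with medians of 0.18, 0.77 and 0.12 against 0.02, 0.03 and 0.00 over all genes. Of all genes, 5.22%, 34.2% and 12.3% rose and 4.43%, 31.8% and 9.76% fell in these steps. Irf4, a transcription factor induced by the pre-B receptor, rose by 1.82 from the early to the dividing gate (adjusted p = 2.43e-08) and fell by 0.37 into the resting gate. Il2ra rose by 1.37 into the resting gate and fell by 1.21 into the mature gate, and Il7r fell by 0.31 and by 2.30. Ebf1, Pax5, Blnk, Blk and Cd72 of these lists are among the B-lineage gate markers.

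The second comparison asked whether the strains differed. In whole marrow, where fewer B cells and less RNA per cell cannot be told apart, 7 of the 9 genes were lower in NZB than in NZW mice, where 19.2% of 12613 genes were called and 9.81% were lower. Rag1 was at 4.46, 2.08 and 4.90 CPM for NZB, 19.7, 10.8 and 23.2 for NZW and 32.9, 15.6 and 22.0 for NZBWF1 mice. All NZB values lay below all others, and NZW and NZBWF1 values overlapped. Igll1 was at 16.9, 11.2 and 29.9 CPM for NZB, 104, 99.7 and 107 for NZW and 145, 124 and 82.4 for NZBWF1 mice, with the same separation.

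By edgeR, the difference of NZB from NZW in whole marrow was -2.34 for Igll1 (SE 0.333, adjusted p = 0.00202), -2.20 for Rag1, -2.15 for Vpreb3, -1.99 for Vpreb1, -1.71 for Cd79b, -1.65 for Cd79a and -0.98 for Rag2 (SE 0.296, adjusted p = 0.0367). The call for Rag2 was lost without any one of 6 mice. Vpreb2 (-1.02, adjusted p = 0.120) and Dntt (-0.46, adjusted p = 0.317) did not pass. Dntt was at 28.4, 33.1 and 29.7 CPM for NZB, 31.4, 35.2 and 68.0 for NZW and 54.0, 65.9 and 42.4 for NZBWF1 mice, so that the NZB and NZW values overlapped.

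NZBWF1 mice lay above NZB mice in whole marrow for most of these genes. Against NZB, 7 of the 9 genes were higher, where 11.1% of genes were called and 6.42% were higher, from 2.53 for Rag1 (adjusted p = 0.00976) to 1.45 for Rag2, and Vpreb2 (1.28, adjusted p = 0.0800) and Dntt (0.71, adjusted p = 0.154) did not pass. The call for Cd79b (1.73) was lost without NZB replicate 2 or NZBWF1 replicate 1. Against NZW, 0 genes of the 9 were called (2.28% of all genes), with differences between 0.01 for Cd79b and 0.48 for Rag2. Against the parents' mean, 0 of the 9 passed (0.896% of all genes), although 8 had an unadjusted p under 0.05 and Rag1 differed by 1.43 (SE 0.331, adjusted p = 0.107). With the replicate number as a block, 5 of the 9 were called higher (Rag1, Rag2, Vpreb3, Cd79a and Cd79b), where 4.08% of all genes were called. DESeq2 called 12 of the 18 tests of NZB against NZW and of NZBWF1 against the parents' mean, where edgeR without the block called 7. These contrasts share mice.

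Within the B-lineage gate, 0 of the 9 differences between NZB and NZW passed. The difference of NZB from NZW was -0.33 for Rag1 (SE 0.509), 0.45 for Rag2, -0.34 for Dntt (SE 0.669), -0.10 for Vpreb1, 0.82 for Vpreb2 (SE 0.517), -0.41 for Igll1, -0.17 for Vpreb3 (SE 0.129), 0.21 for Cd79a (SE 0.143) and -0.02 for Cd79b (SE 0.170) by edgeR. Rag1 was at 76.4, 32.7 and 77.7 CPM for NZB, 82.7, 42.8 and 117 for NZW and 131, 87.1 and 87.2 for NZBWF1 mice, and the NZB and NZW values overlapped. The SE of Rag1, Dntt and Vpreb2 was large enough that a difference of the size of 1 log2 unit could not be told from 0. The shares of the 4 gates within the B lineage did not pass either (exact permutation test over 280 partitions of the mice, two-sided, smallest possible p 0.00357, adjusted p = 0.979 for each), nor with strains permuted within replicate numbers (36 partitions, smallest possible p 0.0278, adjusted p = 0.861 for each).

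**Figure D3:**
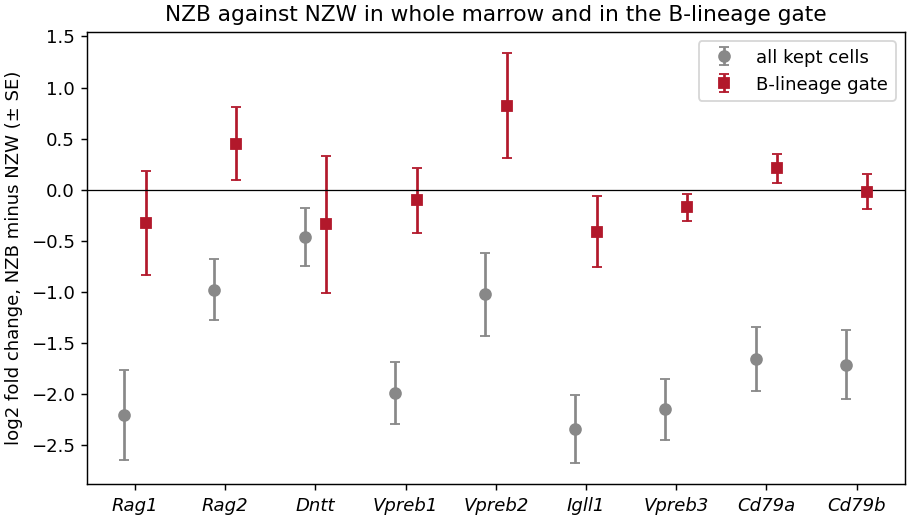
Log2 fold change of NZB against NZW mice (± SE from edgeR) for each gene over all kept cells (grey circles) and over cells of the B-lineage gate (red squares), 3 mice per strain. Whole-marrow values lie between -2.34 and -0.46, and values within the gate lie between -0.41 and 0.82.

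Over the B-lineage gate and its dividing, resting and mature gates, 34 tests could be made per contrast, and 1 of the 136 in all passed. For NZBWF1 against the parents' mean 0 passed, 4 had an unadjusted p under 0.05, and 0.206%, 0.142%, 0.251% and 1.07% of all genes were called in the B-lineage, dividing, resting and mature gates. For NZB against NZW 0 passed, 6 had an unadjusted p under 0.05, and 2.54%, 1.9%, 2.62% and 3.06% of all genes were called. This count of 0 was not stable, as 1 to 2 passed whichever mouse was left out and 5 passed without the low-count filter, which gave 3 for NZBWF1 against the parents' mean. With the replicate number as a block, NZBWF1 against the parents' mean, NZB against NZW and NZBWF1 against NZB gave 2 calls each, Vpreb3 in the resting and mature gates. For NZBWF1 against NZB 1 passed and 5 had an unadjusted p under 0.05, where 0.898%, 0.342%, 2.29% and 2.75% of all genes were called and 1.26% were higher in the mature gate. For NZBWF1 against NZW 0 passed, 2 had an unadjusted p under 0.05, and 0.588%, 0.862%, 0.468% and 0.726% of all genes were called. DESeq2 called 1, 1 and 2 of the genes in the first 3 contrasts.

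The gene that passed was Vpreb3, in the mature gate. It was at 616, 295 and 490 CPM for NZB, 1194, 1361 and 1143 for NZW and 1099, 1270 and 2102 for NZBWF1 mice. All 3 NZB values lay below all others, and the NZW and NZBWF1 values overlapped. NZBWF1 exceeded NZB by 1.45 (SE 0.299, adjusted p = 0.0329, edgeR), NZB was below NZW by a log2 difference of -1.22 (SE 0.300, adjusted p = 0.0660), and NZBWF1 differed from the parents' mean by 0.84 (adjusted p = 0.159) and from NZW by 0.24 (adjusted p = 0.933). The NZB mature gates held 70, 22 and 71 cells. Without NZB replicate 2 the call was lost (1.30, adjusted p = 0.0845), as it was with the mitochondrial limit at 5% (0.77, adjusted p = 0.743), with 2000 UMIs and 1000 genes required, with cells down to 500 UMIs and 250 genes kept (1.07, adjusted p = 0.0578) and with 4 mature marker UMIs required (1.95, adjusted p = 0.321). With a replicate block the difference of NZB from NZW was -1.25 (adjusted p = 5.39e-10, where 3.1% of all genes were called). That of NZBWF1 from the parents' mean was then 0.81 (adjusted p = 5.68e-07, 0.86%). Without a block and without NZW replicate 1, NZB differed from NZW by -1.23 (adjusted p = 1.42e-07, edgeR). The adjusted p thus moved widely between fits at nearly the same difference, and its size is no measure of strength. The call for NZBWF1 against NZB held in 18 of 23 alternatives, the difference of NZB from NZW was called in 15 of 23, and that of NZBWF1 from the parents' mean in 14 of 23.

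In the resting gate Vpreb3 was at 2560, 1029 and 1997 CPM for NZB, 4137, 2704 and 3887 for NZW and 3620, 3422 and 4397 for NZBWF1 mice, and again all NZB values were the lowest. The difference of NZB from NZW was -0.85 (adjusted p = 0.264), and with a replicate block it passed in edgeR, at -0.88 (adjusted p = 9.7e-05, where 3.38% of all genes were called), as did that of NZBWF1 from NZB (0.95, adjusted p = 5.01e-05, 3.14%). With the block, that of NZBWF1 from the parents' mean passed too (0.51, adjusted p = 0.0265, 1.07%). In the dividing gate the values were 2253, 2706 and 2700 CPM for NZB, 2027, 2021 and 1992 for NZW and 1920, 2003 and 2619 for NZBWF1 mice, a difference of 0.32 between NZB and NZW (adjusted p = 0.226), with all NZB values above all NZW values. The order of NZB and NZW was thus opposite in the dividing and mature gates.

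The change of Vpreb3 from the dividing to the mature gate was -1.87, -3.19 and -2.46 on the log2 scale for NZB, -0.76, -0.57 and -0.80 for NZW and -0.80, -0.66 and -0.32 for NZBWF1 mice. This difference between strains had p = 0.025 in the exact permutation test over 280 partitions, and an adjusted p of 0.129 over the 27 tests of 9 genes and 3 pairs of gates. The change of Rag1 from the dividing to the resting gate was 1.41, 1.02 and 1.32 in the NZB mice and 2.13 to 2.98 in the other 6 (exact permutation p = 0.0286, adjusted p = 0.129). The lowest p in that test was 0.00714, for Rag2 from the dividing to the mature gate, where the NZB mice had 0 UMIs in the mature gate. Of the 27 tests 0 passed, and 0.129 was the lowest adjusted p, or 0.300 with strains permuted within replicate numbers. The smallest possible p was 0.00357, or 0.0278 within replicate numbers, so 1 test alone could not pass over 27. The count of 0 therefore does not show that the strains changed alike.

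**Figure D4:**
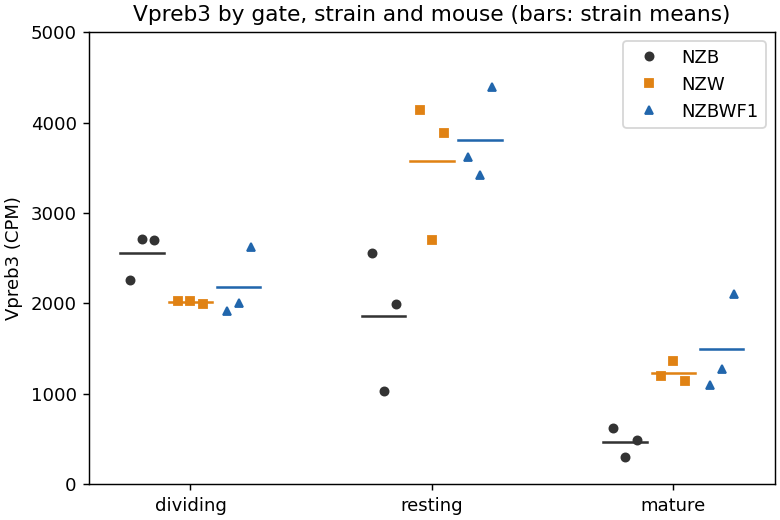
Vpreb3 level in CPM in the dividing, resting and mature gates, with 1 point per mouse and a bar for each strain mean (3 mice). The NZB mice lie at 295 to 616 CPM in the mature gate, under the other 6 mice at 1099 to 2102 CPM, and at 2253 to 2706 CPM in the dividing gate, above the NZW mice.

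Cd79b in the mature gate came next. It was at 2000, 1574 and 2183 CPM for NZB, 2616, 2789 and 2578 for NZW and 2680, 2539 and 3173 for NZBWF1 mice, with all NZB values the lowest. NZBWF1 exceeded NZB by 0.41 (SE 0.130, adjusted p = 0.0552) and NZB differed from NZW by -0.39 (SE 0.129, adjusted p = 0.0712), neither of which passed. Of 23 alternatives, the first was called in 9 (0.41 to 0.59) and the second in 4 (-0.57 to -0.37). Rag2 was listed at 0 UMIs in the mature gate of all 3 NZB mice, where a count of 0 allows up to 25.3, 98.4 and 26.7 CPM, limits above the 21.0 CPM that was the highest value of any mouse.

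Some genes of the related pathways did differ between NZB and NZW within the gates, and all of those called were lower in NZB, where 1.12%, 0.992%, 1.04% and 1.55% of all genes were lower in the B-lineage, dividing, resting and mature gates. Among 12 end-joining genes, Lig4 was lower over the B-lineage gate (-1.45, SE 0.220, adjusted p = 0.000235), the dividing gate (-1.75) and the resting gate (-2.95), Polm, a polymerase of this pathway, over the B-lineage gate (-1.68) and the resting gate (-2.60), and Xrcc6 in the resting gate (-1.14). This made 2 of 12, 1 of 12, 3 of 8 and 0 of 6 tested genes in the B-lineage, dividing, resting and mature gates, with list medians of -0.33, -0.59, -0.02 and -0.41 against 0.00, -0.02, -0.02 and -0.03 over all genes.

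Among the regulators of the Rag genes, Foxo1 was lower in NZB over the B-lineage gate (-0.73, adjusted p = 0.0119) and the resting gate (-1.09), and Tcf3 (-0.76), Myb (-0.85) and Sox4 (-1.0) in the resting gate, or 4 of 13 tested there. In the mature gate Ebf1 (-0.69, adjusted p = 0.000560), Tcf3 (-0.93), Bach2 (-1.33) and Foxp1 (-0.54) were lower, again 4 of 13, and Pax5 (0.57), Ebf1 (0.45) and Sox4 (0.90) were higher in NZBWF1 than in the mean of the parents (0.592% of all genes). Of the signalling list, Syk was lower in NZB in the dividing (-0.62) and mature gates (-0.85) and Irf8 in the mature gate (-0.73). The mean level of Vpreb3 over 15 classes and gates followed that of Ebf1 most closely of 6366 genes, and the part of Ebf1, a gate marker, in the Vpreb3 difference was not tested.

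The third comparison asked where the 9 genes were found outside the B lineage. Neutrophil-like cells, which should lack them, served as the background for RNA free in the droplets. Their median depth was 2359 UMIs per cell. It was 1683.5 in pDC-like, 3472.5 in HSC-like, 4890.5 in granulocyte-monocyte precursor-like and 9838 in plasma cell-like cells. The part of depth in the level of free RNA was not tested. In each mouse 9 further classes were compared with neutrophil-like cells, 81 tests in all. Of these, 8 (9.88%) were higher by an exact sign-flip permutation test (two-sided, unadjusted p of 0.0156 or less, adjusted p from 0.0396 to 0.0469), where 29.8% of the tests of all genes in these classes were higher at the same unadjusted p, so that the count is below the share over all genes. Lower values are not counted, since several classes held too few UMIs to show the neutrophil level. In the 62 tests where the class would hold at least 3 UMIs at that level, a limit chosen after seeing the data, 5 were higher, namely Dntt and Cd79b in pDC-like and HSC-like cells and Cd79b in granulocyte-monocyte precursor-like cells. With any one mouse but NZW replicate 1 left out, 0 of the tests passed as higher, where 8 mice allow a p no smaller than 0.00781, and 0 of 63 passed with the mitochondrial limit at 5%. Dntt was the clearest. In HSC-like cells it was at 393, 268 and 154 CPM for NZB, 303, 304 and 507 for NZW and 927, 496 and 122 for NZBWF1 mice, against 0.357 to 6.02 CPM in neutrophil-like cells. Every mouse was higher than in neutrophil-like cells, and the strains overlapped. In the B-lineage gate as a whole, Dntt was at 68.0, 95.7 and 190 CPM for NZB, 86.7, 118 and 281 for NZW and 162, 271 and 125 for NZBWF1 mice. HSC-like cells thus lay above the B-lineage gate in all mice but NZB replicate 3 and NZBWF1 replicate 3, a difference that was not tested.

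Dntt was also detected in pDC-like cells, at 118, 143 and 125 CPM for NZB, 65.0, 160 and 209 for NZW and 133, 61.3 and 80.0 for NZBWF1 mice, above neutrophil-like cells in 9 of 9 mice. These cells held the 14 B-lineage markers at a summed 659 CPM, against 68.5 in neutrophil-like cells and 7782 in the resting gate, and HSC-like cells held them at 138 CPM. The part of these B-lineage markers in the Dntt level was not tested. Vpreb1 was at 7.09 ± 5.09 CPM in pDC-like and 8.11 ± 12.3 in HSC-like cells (SD, n = 9), beside 7.05 ± 5.68 in neutrophil-like cells. Dntt was thus high in these 2 classes without a matching level of Vpreb1.

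**Figure D5:**
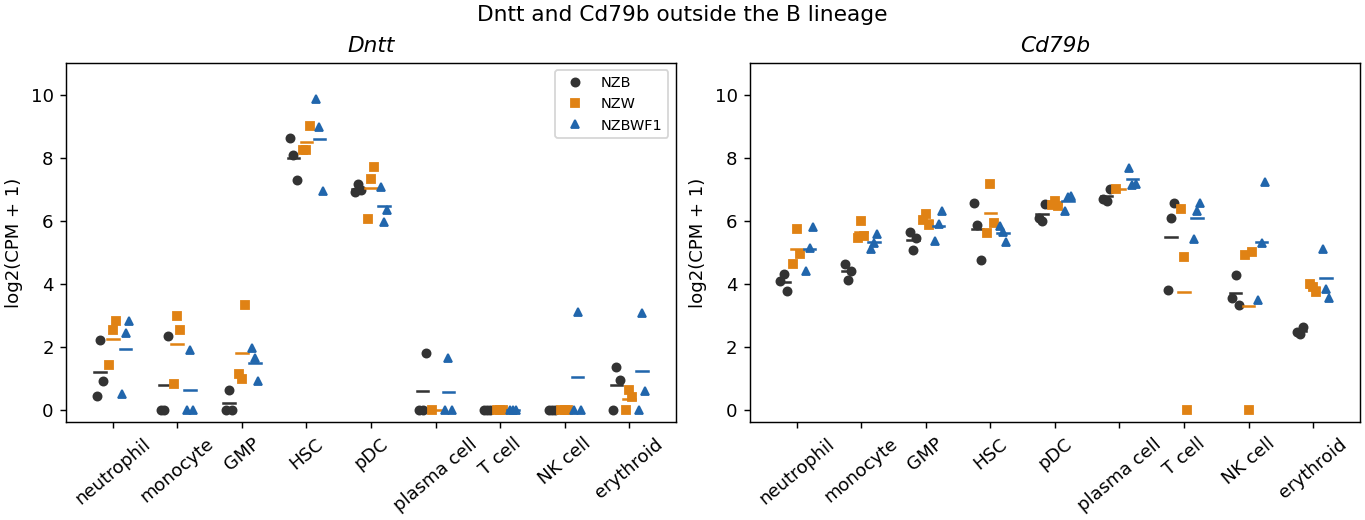
Level of Dntt and Cd79b, as log2(CPM + 1), in marker-defined classes outside the B lineage, with 1 point per mouse and a bar for each strain mean. Dntt lies between 122 and 927 CPM in HSC-like cells and between 61.3 and 209 CPM in pDC-like cells, and Cd79b lies above the level of neutrophil-like cells of the same mouse in all 9 mice for granulocyte-monocyte precursor-like and pDC-like cells.

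Cd79a and Cd79b parted outside the B lineage. In plasma cell-like cells, which descend from B cells, Cd79a was at 208 ± 31.4 and Cd79b at 134 ± 34.8 CPM (SD, n = 7), both above neutrophil-like cells in 7 of 7 mice (exact permutation adjusted p = 0.0469 each, and 0.0570 in the 62 tests above). Cd79b was higher without Cd79a in pDC-like cells (87.7 ± 15.8 CPM, n = 9) and granulocyte-monocyte precursor (GMP)-like cells (54.5 ± 15 CPM, n = 9), in 9 of 9 mice each. It was also higher in HSC-like cells (63.2 ± 34.8 CPM, n = 9), in 8 of 9 mice, while neutrophil-like cells stood at 29.1 ± 15.3 CPM. In GMP-like cells Cd79a was lower than in neutrophil-like cells, at 9.99 ± 8.68 against 24.1 ± 11.3 CPM (SD, n = 9, exact permutation adjusted p = 0.0396). Rag1 and Vpreb3 (adjusted p = 0.0396 each) and Igll1 (0.0469) were lower there too by the same test, so this was not particular to Cd79a.

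The ratio of Cd79b to Cd79a UMIs, which counts molecules by their 3′ ends and so does not depend on transcript length, was 1.03 in the B-lineage gate, 0.701 in plasma cell-like cells, 1.21 in neutrophil-like cells and 1.28 in droplets holding free RNA only. It was 4.49 in pDC-like, 5.28 in GMP-like and 2.82 in HSC-like cells. Over the mice with a ratio it ranged from 2.08 to 18 in pDC-like, 2.81 to 15.3 in GMP-like and 1.13 to 13 in HSC-like cells, against 1.06 to 1.47 in free RNA, 0.866 to 1.68 in neutrophil-like and 1.43 to 3.45 in monocyte-like cells. The ranges of pDC-like and GMP-like cells lay above those of free RNA and neutrophil-like cells, and that of HSC-like cells overlapped both. Rag2 was also called in HSC-like cells, but on 11 UMIs (6.85 CPM against 0.430), and it was not among the 62 tests.

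Over the 15 classes and gates of the same libraries, the genes whose log2 mean CPM followed each of the 9 most closely were ranked, and up to 3 are named for each. Rag1 was closest to Gm37065 (Pearson r = 0.964), Igll1 (0.961) and Akap12 (0.955), Rag2 to Cplx2 (0.967), Gfra1 (0.952) and Rsph9 (0.939), and Dntt to Epb41l4b (0.924), Rag2 (0.901) and Arpp21 (0.892). Vpreb1 was closest to 1700027J07Rik (0.972), Igll1 (0.968) and Vpreb3 (0.957), Vpreb2 to Cplx2 (0.953), 1700027J07Rik (0.953) and Vpreb1 (0.952), and Igll1 to Vpreb1 (0.968), Gm37065 (0.966) and Akap12 (0.964). Vpreb3 was closest to Ebf1 (0.991) and 1700027J07Rik (0.964), Cd79a to Pou2af1 (0.970) and Cd79b (0.941), and Cd79b to Cd79a (0.941), Chst3 (0.927) and Snn (0.924). Ebf1 and Pou2af1 are gate markers, and the correlations describe 15 points that share libraries.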

How the data were processed

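Droplet libraries of the 3′ ends of transcripts (10x Genomics, kit v3.1) were made, 1 per mouse, from the bone marrow of 9 mice. According to the submitters' processing notes, the authors used bcl2fastq 2.20 and Cell Ranger 3.1.0 with build mm10, and deposited 1 matrix of UMI counts over the barcodes called cells and 1 over all barcodes, from which free RNA was read. The number at the end of a barcode was matched to a library by the deposited list of merged libraries. The deposited values are raw counts per gene and cell, with no normalization found in them. The annotation used for counting and any equalising of depth between libraries are not given in the sources used here. All reads were aligned to the reference strain, and the effect of NZB and NZW variants on mapping was not tested.

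As in the study, barcodes needed 1000 UMIs, 500 detected genes and no more than 10% of UMIs from mitochondrial genes. A cell took the class whose markers most exceeded what its depth would give, with at least 2 different markers, and 4564 cells (11.7%) that passed for a second class were left out as mixed, which also stood in for a doublet caller, with the top 5% of cells by UMIs left out as an alternative. A further 2196 cells (5.62%) passed no gate and 260 B-lineage cells met 2 stage rules. The early gate needed 1 UMI of 4 early markers, the dividing gate 3 UMIs of 15 division markers and the mature gate 2 UMIs of 6 mature markers. Free RNA came to 0.485% to 0.776% of a mouse's median UMIs per cell.

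UMIs were summed per gate and mouse, leaving out mice with under 10 cells, and tested with edgeR 4.0.16 in R 4.3.3 (TMM, robust quasi-likelihood, filterByExpr, no replicate block), with Benjamini-Hochberg adjustment over all genes tested and a threshold of 0.05. Stage steps were fitted with mouse as a covariate. Classes outside the B lineage were compared on log2(CPM + 1) with the neutrophil-like cells of the same mouse. Fold changes of low genes are understated on that scale. The fit was tested on data simulated from the resting gate for NZBWF1 against the parents' mean (5582 genes). It called 135 of the 200 genes given a 2-fold change and 3 unchanged ones. Whether this recovery holds for low genes, or for genes with a wide spread between mice, was not tested. In the resting gate Rag2 stood at 57.6 ± 27.8 and Vpreb1 at 962 ± 476 CPM (SD over mice). Cd79a varied less, at 2148 ± 312 CPM. The recovery is therefore no measure of how well a 2-fold change in the genes described here would be found. DESeq2 1.42.0, numpy 2.4.6, scipy 1.17.1, pandas 2.3.3, matplotlib 3.10.9 and Biopython 1.88 (Python 3.11.15) were also used.

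The 9 genes, the marker lists and the pathway lists were chosen with earlier results of these data known. Named were all 9 genes, the 3 genes most like each of them, and the pathway genes called between NZB and NZW or for NZBWF1 against the parents' mean in a B-lineage gate. One gene that this rule names is not reported here. Alternatives changed the normalization, filters, tool, gates, cell limits, doublets, free RNA and pseudocount, left out each mouse or added a replicate block. Intervals and limits cover counting error only, and a count of 0 was taken to allow 3 UMIs. Nothing in the labels pairs mice across strains. Deviations from the strain means over whole marrow nevertheless correlated above 0.1 in every same-numbered pair of NZB with NZW (0.204 to 0.482). So did those of NZB with NZBWF1 (0.142 to 0.395). For NZW with NZBWF1, numbers 1 and 2 correlated at 0.425 and 0.500, and number 3 at -0.0607. Within the B-lineage gate, same-numbered pairs ranged from -0.0075 to 0.401 and the other pairs from -0.478 to 0.203. Values with a replicate block therefore stand beside the contrasts with NZB where a call changed. A gate for early cells that also used Dntt, 4 mature marker UMIs, 500 UMIs with 250 genes, a minimum of 3 expected UMIs outside the B lineage and permutation within replicate numbers were added after seeing the data.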

Additional observations from a re-analysis of the deposited data

Results flagged for a closer look

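All 9 genes were detected in the 2196 kept cells that passed no gate, which above enter only the values over whole marrow, at a mean level above that of neutrophil-like cells in 9 of 9 mice. The mean over mice was 19.8 CPM for Rag1, 15.3 for Rag2, 206 for Dntt, 295 for Vpreb1, 47.9 for Vpreb2, 591 for Vpreb3, 244 for Igll1, 323 for Cd79a and 331 for Cd79b. These cells held 22.1% of the kept UMIs of Dntt, 17.8% of Vpreb2 and 14.2% of Igll1, and 5.95% of Cd79b. Pooled over mice and without a test, 203 of them had at least 2 Dntt UMIs, and Igll1 was detected in 25.6%, Vpreb1 in 27.1%, Rag1 in 15.8% and Cd79a in 30.5% of these, against 13.1%, 14.8%, 3.16% and 33.2% of the other cells without a gate.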

How the results depend on the processing

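Main calls in the B-lineage gates were 0, 0, 1 and 0 for NZBWF1 against the parents' mean, NZB against NZW, NZBWF1 against NZB and NZBWF1 against NZW. Without the low-count filter the first 3 counts were 3, 5 and 4, with DESeq2, and with mixed cells kept, 1, 1 and 2, with the study's B-cell list, which holds 4 of the 9 genes, 1, 2 and 2, and with the top 5% of UMIs left out 1 and 1 for the first and second. NZBWF1 against NZB gave 2 with RLE size factors, with 1 more marker gene (NZB against NZW also 2) and with Dntt in the early gate, and 0 with 2000 UMIs and 1000 genes, the mitochondrial limit at 5% or 4 mature marker UMIs. Keeping cells down to 500 UMIs and 250 genes gave 1 for NZBWF1 against the parents' mean (Rag1 in the mature gate, 1.14, adjusted p = 0.0497). The cause was not tested. In whole marrow, NZB against NZW and NZBWF1 against the parents' mean gave 7 calls together, and 12 with DESeq2. Leaving out 1 mouse at a time gave 0 to 1, 1 to 2, 1 to 2 and 0 to 2 calls in the 4 contrasts, 6 to 11 in whole marrow, 20 to 24 for the 22 stage calls (18 with DESeq2 or the mitochondrial limit at 5%, 16 with 2000 UMIs and 1000 genes), 0 to 8 for the 8 calls outside the B lineage and 0 to 0 for the stage shares. The 8 calls outside the B lineage became 0 with the mitochondrial limit at 5% (lowest adjusted p = 0.0820), 13 with mixed cells kept, 5 with free RNA subtracted, 5 with a pseudocount of 10 and 5 where only tests with at least 3 UMIs expected at the neutrophil level were made, and all 140 single values stayed above neutrophil-like cells.

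With a replicate block the counts were 2, 2 and 2 for the first 3 contrasts, all Vpreb3, and 12 in whole marrow, 7 for NZB against NZW and 5 for NZBWF1 against the parents' mean, and it changed no other call. In the B-lineage gate and in whole marrow, 7 of 9 and 9 of 9 mice correlated best with a mouse of their own number.

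Of 393 single stage results under alternatives, 368 stayed called, 24 were lost and 1, Vpreb1 from the dividing to the resting gate at 500 UMIs and 250 genes (-0.0688), reversed. For Vpreb3 in the mature gate, NZBWF1 minus NZB stayed between 0.77 and 1.95, with adjusted p from 1.19e-22 to 0.743, and NZB against NZW was called in 15 of 23 alternatives (-1.47 to -1.08). The mature gate had as few as 22 cells in a mouse, the early gate 3 (left out), and the resting gate the lowest median depth, 1213 UMIs per cell.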

Other observations

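The cell filter removed many B-lineage molecules. Barcodes that the authors' matrix holds but the filter discards carried 60.1% of all Rag1 UMIs, 48.9% of Cd79a, 48.4% of Cd79b, 41.8% of Vpreb3 and 35.0% of Rag2, against 20.2% of Vpreb1, 18.1% of Igll1, 17.2% of Vpreb2 and 13.6% of Dntt. In the 26965 barcodes discarded for depth alone, with a median of 757 UMIs, Rag1 stood at 123 ± 63.9 CPM and Vpreb3 at 1408 ± 770 CPM (SD, n = 9), against 15.1 ± 10.4 and 366 ± 225 CPM in kept cells. With 500 UMIs and 250 genes required, a limit chosen after seeing the data, the resting gate grew from 2582 to 9628 cells and the early gate from 161 to 177, while the dividing gate went from 2848 to 2514. Rag1 in the resting gate was then at 315 ± 102 CPM and Vpreb1 at 646 ± 439 CPM, against 203 ± 93.7 and 962 ± 476 CPM before.

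Cd79b was also detected in macrophage-like cells, at 233 ± 75.7 CPM (SD, n = 5, the mice with at least 10 such cells), a class that was not tested. The 14 B-lineage markers summed to 410 CPM in these cells.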
